A study of Mus musculus with 19 samples.

Results

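Prox1, Dsp, C1ql2 and Tdo2 are genes associated with granule cells of the dentate gyrus, and Bok, Iyd, Coch and Cdh24 are genes associated with pyramidal cells of area CA3. Their reads were examined in libraries made from tissue of area CA1, the neighbouring hippocampal field, to ask how evenly the dissection excluded these regions in young and old mice. The genes were taken as a given set of 8, chosen with earlier results of these data known. They were found by symbol among 48709 annotated genes. All 8 passed the filter on low counts, together with 19278 other genes (19286 tested in all).

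The hippocampus is a chain of fields in which granule cells of the dentate gyrus send mossy fibres to CA3, and CA3 pyramidal cells send Schaffer collaterals to CA1. Each field has its own program of gene expression, and the fields lie against each other in the tissue, so RNA of a neighbouring field can enter a microdissected sample. Transcripts that are abundant in one field and scarce in another are used as tracers of such RNA. In bulk tissue, fewer cells of a type and less RNA per cell cannot be told apart.

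Polyadenylated RNA of the microdissected CA1 region was measured in 19 libraries of male wild-type C57B/6J mice. The study's own text names dorsal hippocampal tissue for this sequencing and does not narrow it to CA1. Mice of 3 months (young, n = 6) and of 16.5 months (old control, n = 6) had received lipid nanoparticles with control oligonucleotides in the dorsal hippocampus, and further mice of 16.5 months (old anti-miR-mix, n = 7) had received nanoparticles with inhibitors of the 3 microRNAs miR-181a-5p, of miR-148a-3p and also of miR-146a-5p. Since titles in the groups without inhibitors also begin with anti-miR-mix, groups were taken from the descriptions, and the control treatment from the study's methods. The labels do not tie libraries to separate animals, and p-values therefore measure the spread between libraries.

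Libraries held 26653511 to 38908947 reads assigned to genes. CA1 pyramidal genes were abundant in all of them, with at least 4923 reads of Wfs1 and 9496 reads of Mpped1 per library. Old control replicates 5 and 6 were nearly alike (chi-square per degree of freedom of 2.18 over genes, against 6.10 to 35.87 in the other pairs within groups), so that results were also computed with both summed as 1 library. A whole number from 1 to 4 per library was inferred from the deposited log2 values and the counts. It is called processing group here as a name only. No label gives this number, and its source and meaning are not given in the sources used here. Processing group 3 held 5 libraries, of which 2 were young and 3 old anti-miR-mix, and 0 were old control.

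Among the dentate genes, Prox1 encodes a homeobox transcription factor that sets granule cell identity (ENSMUSG00000010175, GRCm38 chromosome 1, 190118035 to 190170714, minus strand). Dsp encodes desmoplakin, a protein of desmosomal plaques (ENSMUSG00000054889, chromosome 13, 38151294 to 38198577, plus strand). C1ql2 encodes a secreted C1q-like protein of mossy fibre synapses (ENSMUSG00000036907, chromosome 1, 120340582 to 120343174, plus strand). Tdo2 encodes a tryptophan dioxygenase at the entry of the kynurenine pathway (ENSMUSG00000028011, chromosome 3, 81957090 to 81976202, minus strand). The values of these genes moved together across libraries, as did those of Iyd. The bases just upstream of the RefSeq starts of these genes and of Iyd are shown as a description (RefSeq, GRCm38.p6, 250 bases each, 5′ to 3′ on the strand of the gene). Shared regulation of these genes was not tested. Capitals mark the letters CAGATG or, for the other strand, CATCTG, an E-box of the kind bound by neuronal bHLH factors.
Prox1 (chr1:190170828-190171077, minus strand): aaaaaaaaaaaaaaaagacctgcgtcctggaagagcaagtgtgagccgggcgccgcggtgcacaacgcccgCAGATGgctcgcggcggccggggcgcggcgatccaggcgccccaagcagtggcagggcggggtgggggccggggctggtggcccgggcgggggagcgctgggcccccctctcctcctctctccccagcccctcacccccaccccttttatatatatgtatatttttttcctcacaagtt
Dsp (chr13:38151044-38151293, plus strand): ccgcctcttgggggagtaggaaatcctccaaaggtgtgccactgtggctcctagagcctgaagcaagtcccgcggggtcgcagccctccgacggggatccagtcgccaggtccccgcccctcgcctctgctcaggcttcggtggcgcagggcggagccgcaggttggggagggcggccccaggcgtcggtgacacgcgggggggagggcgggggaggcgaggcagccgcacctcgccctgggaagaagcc
C1ql2 (chr1:120340332-120340581, plus strand): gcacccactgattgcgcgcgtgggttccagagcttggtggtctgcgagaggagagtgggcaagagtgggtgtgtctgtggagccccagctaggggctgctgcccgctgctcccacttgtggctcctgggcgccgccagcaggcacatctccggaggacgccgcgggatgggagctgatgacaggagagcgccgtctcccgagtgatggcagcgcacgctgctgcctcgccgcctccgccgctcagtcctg
Tdo2 (chr3:81975729-81975978, minus strand): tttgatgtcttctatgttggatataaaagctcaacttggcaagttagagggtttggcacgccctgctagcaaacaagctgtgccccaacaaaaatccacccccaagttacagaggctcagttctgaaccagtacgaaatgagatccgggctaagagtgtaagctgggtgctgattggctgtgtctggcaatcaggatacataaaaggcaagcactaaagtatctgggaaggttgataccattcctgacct
Iyd (chr10:3540024-3540273, plus strand): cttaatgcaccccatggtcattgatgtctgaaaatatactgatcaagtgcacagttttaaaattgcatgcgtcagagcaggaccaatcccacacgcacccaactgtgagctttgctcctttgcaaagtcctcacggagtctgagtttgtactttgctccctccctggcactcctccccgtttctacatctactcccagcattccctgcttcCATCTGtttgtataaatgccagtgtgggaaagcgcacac
Of 32851 upstream windows of this length, 14.4% held CAGATG on either strand, and among the 5 windows shown it was found in Prox1 and in Iyd. It was also in the window of Cdh24, whose values did not move with those of the dentate genes, and had 0 matches in the window of the other listed start of Prox1. A second E-box, CAGCTG, which reads the same on both strands, was in 13% of all windows and in 0 of these 5. The share of G and C was 64.8% for Prox1, 72.4% for Dsp, 68.8% for C1ql2, 46.4% for Tdo2 and 48.4% for Iyd. These matches are a description of the letters and not of binding. For Prox1 the more distal of its listed starts is shown. The Tdo2 window lies inside the annotated span of the gene. The Iyd window ends at 3540273, inside the annotated span of Iyd, which starts at 3540240.

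Among the CA3 genes, Bok encodes a pore-forming member of the Bcl-2 family (ENSMUSG00000026278, chromosome 1, 93685660 to 93695764, plus strand). Iyd encodes iodotyrosine deiodinase, which recovers iodide from iodinated tyrosines (ENSMUSG00000019762, chromosome 10, 3540240 to 3554877, plus strand). Coch encodes cochlin, a secreted extracellular matrix protein best known from the inner ear (ENSMUSG00000020953, chromosome 12, 51593341 to 51605771, plus strand). Cdh24 encodes a cadherin, a cell adhesion protein (ENSMUSG00000059674, chromosome 14, 54631231 to 54641364, minus strand). Prox1 and Dsp overlap exons of other annotated genes on the opposite strand, which matters because strand counting was not stated. Prox1 shares 133 exon bases with Prox1os, which had 20 to 95 reads per library, and Dsp shares 499 with Gm10129, which had 0 or 1 read.

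Levels were first compared between the genes as CPM (reads scaled to library size, with edgeR's factors) per kilobase of exon, over all 19 libraries. Bok had the highest mean level, 7.86 ± 1.18 CPM per kilobase (SD, n = 19), and exceeded C1ql2 in 18 of 19 libraries. C1ql2 followed at 4.79 ± 1.89, and its spread overlapped that of Prox1 at 4.32 ± 1.03, which it exceeded in 12 of 19 libraries. Cdh24 (3.00 ± 0.51) and Coch (1.83 ± 0.70) came next. Dsp stood at 0.551 ± 0.572, with an SD larger than its mean, and exceeded Tdo2 (0.278 ± 0.120) in 13 of 19 libraries. Iyd was last at 0.133 ± 0.090 and lay under Tdo2 in all 19 libraries.

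The number of reads behind these levels differed widely. Prox1 had between 697 and 1975 reads per library, Bok between 284 and 609, Cdh24 between 230 and 529, C1ql2 between 102 and 607 and Coch between 92 and 386. Tdo2 had 13 to 84 reads and Dsp 10 to 695. Iyd had 1 to 22 reads, so that its value in a single library is imprecise.

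Dsp was the most variable of the 8 genes. Its log2 CPM (computed with a prior count of 2) was -0.82 at the lowest, 1.42 at the median and 4.18 at the highest among the young libraries. Among old control libraries the lowest value was -0.40, the median 1.43 and the highest 3.35. Among old anti-miR-mix libraries these values were -1.24, 1.63 and 4.12. The 3 groups overlapped over nearly their whole range, and the highest values belonged to young replicate 4, old anti-miR-mix replicate 5 and old anti-miR-mix replicate 3. The lowest belonged to old anti-miR-mix replicate 7, young replicate 1 and the pair of old control replicates 5 and 6. The SD within groups was 1.70, against a median of 0.15 over all genes tested, at percentile 99.97 of all genes.

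Prox1 varied on a smaller scale. Its log2 CPM ran from 4.65 through a median of 5.09 to 5.68 in young, from 4.62 through 5.19 to 5.45 in old control, and from 4.79 through 5.22 to 5.83 in old anti-miR-mix libraries. Old control replicates 5 and 6 and young replicate 1 were lowest and old anti-miR-mix replicate 5 was highest, while old anti-miR-mix replicate 7, the lowest library for Dsp, was at 5.04. The SD within groups was 0.35 (percentile 79.67). 

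C1ql2 ranged from 2.21 to 3.99 in young (median 3.46), from 2.19 to 3.84 in old control (median 2.86) and from 1.82 to 3.95 in old anti-miR-mix libraries (median 3.15). Its lowest libraries differed from those of Dsp, since old anti-miR-mix replicate 1 (1.82), old control replicate 2 (2.19) and young replicate 2 (2.21) were lowest. Tdo2 ranged from -0.65 to 1.17 in young (median -0.06), from -0.33 to 0.63 in old control (median -0.05) and from -0.92 to 1.03 in old anti-miR-mix libraries (median 0.10). SDs within groups were 0.65 for C1ql2 (percentile 97.5) and 0.57 for Tdo2 (percentile 95.25).

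Of the CA3 genes, Iyd was lowest and most variable, with log2 CPM from -2.85 to -1.32 in young (median -2.11), from -3.37 to -1.20 in old control (median -2.34) and from -2.60 to -0.47 in old anti-miR-mix libraries (median -2.03). Its SD within groups was 0.67 (percentile 97.85). Bok and Cdh24 varied least. Bok lay between 3.77 and 4.06 in young (median 3.90), between 3.43 and 4.09 in old control (median 3.68) and between 3.58 and 4.23 in old anti-miR-mix libraries (median 3.81). Cdh24 lay between 3.09 and 3.79 in young (median 3.32), between 3.16 and 3.59 in old control (median 3.42) and between 3.06 and 3.77 in old anti-miR-mix libraries (median 3.20). SDs within groups were 0.22 for Bok (percentile 63.88) and 0.25 for Cdh24 (percentile 68.38).

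Coch was the only gene of the set whose groups separated. Its log2 CPM was 2.64 at the lowest, 2.78 at the median and 3.53 at the highest in young libraries. In old control libraries it was 1.73, 2.06 and 2.12, so that each old control library lay under each young library. In old anti-miR-mix libraries it was 1.72, 2.20 and 3.03, which spanned the old control values and reached into the young range.

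**Figure D1:**
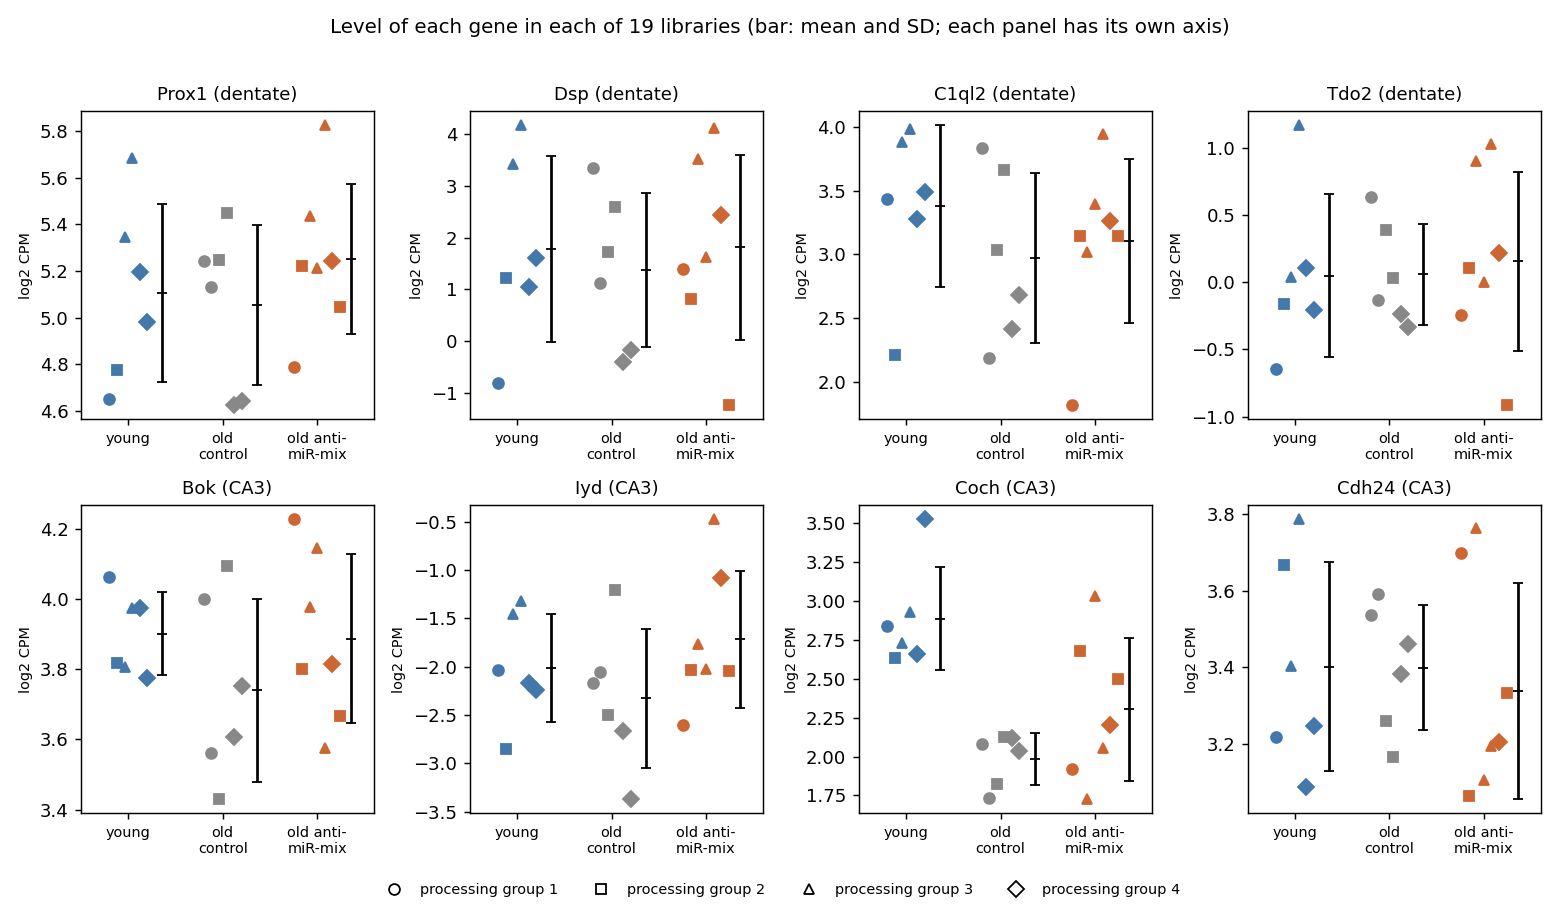
Log2 CPM (vertical axis, a separate scale in each panel) of the 4 dentate genes (upper row) and the 4 CA3 genes (lower row) in each library, by group (horizontal axis), with marker shapes for the processing group and a bar for mean ± SD. Coch is the only panel in which old control libraries (1.73 to 2.12) lie under all young libraries (2.64 to 3.53), while Dsp spans from -1.24 to 4.18.

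To determine whether any of these genes differed with age, the old control and young groups were set against each other. In the quasi-likelihood test of edgeR, with Benjamini-Hochberg adjustment over 19286 genes, 1 of the 8 genes was called, where 2.67% of all genes were called. Coch was lower in old control libraries by -0.94 on the log2 scale, where the SE was 0.19 (adjusted p = 0.0108 in edgeR). Mean values were 2.89 ± 0.33 log2 CPM for the 6 young libraries (± SD) and 1.99 ± 0.17 for the 6 old control libraries. Coch was also the 1 gene of 8 without overlap between the groups, against 2.54% of all genes. Differences between groups accounted for 56.2% of its spread, while the median over all genes was 14.7%.

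The fall of Coch was found within processing groups as well. In processing group 1, old control libraries were lower than young ones by a difference of -0.93 in mean log2 CPM (2 against 1 libraries), in group 2 by -0.66 (2 against 1) and in group 4 by -1.01 (2 against 2). With processing group as a factor the log2 fold change was -0.92 (adjusted p = 0.0287 in edgeR), and with old control replicates 5 and 6 as 1 library it was -0.95 (adjusted p = 0.0234 in edgeR). Without young replicate 6, the highest library, it was -0.78 (adjusted p = 0.0247 in edgeR). Over all alternatives, single libraries left out included, the adjusted p lay between 0.000144 in DESeq2 and 0.0305 in edgeR without old control replicate 3.

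Markers of other tissue moved with Coch. After subtraction of group means, Coch had r = 0.72 (rho 0.73) over the 19 libraries with the mean of 4 cortical genes (Rorb, Cux2, Fezf2 and Tbr1), 0.57 (rho 0.62) with that of 6 meningeal genes, 0.51 (rho 0.55) with that of 5 thalamic genes and -0.79 (rho -0.81) with that of 5 CA1 genes. The mean log2 CPM of the cortical genes ranged from 5.58 to 5.96 in young, from 5.54 to 5.72 in old control and from 5.31 to 5.90 in old anti-miR-mix libraries. With age 0 of the 4 were called in edgeR (2 at an unadjusted p under 0.05), 2 were lower and 2 higher, from -0.40 for Tbr1 to 0.13 for Fezf2, and each had at least 620 reads in every library. The mean of the meningeal genes ranged from 1.75 to 3.88 in young, from 2.03 to 2.72 in old control and from 1.75 to 3.84 in old anti-miR-mix libraries, and young replicate 6 was highest in both Coch and these genes. In old control against young libraries 0 of the 6 meningeal genes were called in edgeR (2 at an unadjusted p under 0.05), 5 were lower, and the median log2 fold change was -0.41, from -1.87 for Slc47a1 to 0.55 for Dcn. The lowest count of any of them in a library was 7 reads, of Slc47a1. Of the 5 thalamic genes, 4 were lower, with a median of -0.22 and 0 called (2 at an unadjusted p under 0.05), and their mean log2 CPM ranged from 2.82 to 3.14 in young, from 2.66 to 3.07 in old control and from 2.76 to 3.25 in old anti-miR-mix libraries. The part of these tissues in the Coch result was not tested.

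The other 7 genes had values that did not pass the test. Their log2 fold changes in old control against young libraries were -0.67 for Dsp (SE 0.77), -0.38 for C1ql2 (SE 0.31), -0.36 for Iyd (SE 0.50), -0.14 for Bok (SE 0.12), -0.09 for Tdo2 (SE 0.32), -0.07 for Prox1 (SE 0.18) and -0.02 for Cdh24 (SE 0.13). Adjusted p values in edgeR lay between 0.563 for Bok and 0.961 for Cdh24. The SE of Dsp was larger than its fitted value, so that a difference of that size was not detectable at this spread. All 8 fitted values were under 0, beside a median of 0.01 over all genes, but with processing group as a factor those of Prox1, Dsp, Tdo2, Iyd and Cdh24 were above 0 (0.12, 0.65, 0.31, 0.03 and 0.01).

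To determine the effect of the inhibitors, the treated old libraries were compared with the old controls. None of the genes was called in edgeR (0 of 8, 0 at an unadjusted p under 0.05, and 0 in DESeq2 and limma-voom), where 0.669% of all genes were called, and 0 of 8 had groups without overlap, against 0.498% of all genes. Iyd had the largest value, 0.80 on the log2 scale (SE 0.46) with an adjusted p = 0.569 in edgeR, which rests on 1 to 22 reads per library. Dsp had 0.63 (SE 0.74), Coch 0.37 (SE 0.19), Tdo2 0.21 (SE 0.31), Prox1 0.20 (SE 0.17), Bok 0.14 (SE 0.11), C1ql2 0.10 (SE 0.30) and Cdh24 -0.04 (SE 0.13). With processing group as a factor the values of Dsp (-0.71), C1ql2 (-0.22), Tdo2 (-0.28) and Prox1 (-0.05) had the opposite sign, so that a direction cannot be given for the dentate genes.

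Between the old anti-miR-mix and the young group, 0 of 8 genes were called in edgeR, where 6.2% of all genes were called. Coch was the 1 gene with an unadjusted p under 0.05, and 0 of 8 genes were without overlap, against 2.42% of all genes. The value of Coch was -0.57 on the log2 scale (SE 0.18), with an adjusted p = 0.065 in edgeR, and it passed in DESeq2 (-0.57, adjusted p = 0.0268) and in limma-voom (-0.62, adjusted p = 0.0352). Without old anti-miR-mix replicate 4, which had the highest Coch value of its group (3.03), it was -0.73 (adjusted p = 0.00974 in edgeR). The other genes had values between -0.28 for C1ql2 (SE 0.30) and 0.44 for Iyd (SE 0.43). Each pair of the 3 comparisons shares a group of libraries, so the 3 sets of values are not independent.

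Since few genes differed between groups, their variation among libraries of one group was examined next. The mean of each group was subtracted and Pearson's r was computed for each pair of genes over the 19 libraries, which share their library, its depth and its dissection. Among the 4 dentate genes all 6 pairs were positive, from 0.48 for C1ql2 with Tdo2 to 0.89 for Dsp with Tdo2, with a median of 0.76. Prox1 had r = 0.83 with Dsp (rho 0.82, and 0.76 without the 2 libraries farthest from the median), 0.80 with Tdo2 (rho 0.88, 0.67 without 2) and 0.72 with C1ql2 (rho 0.70, 0.65 without 2). The 6 pairs were positive in each group taken alone, from 0.44 to 0.92 in young, 0.65 to 0.90 in old control and 0.32 to 0.96 in old anti-miR-mix libraries. They were also positive after the means of processing groups were subtracted in place of those of the groups (0.24 to 0.81) and without old control replicate 6 (0.47 to 0.88).

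The 4 CA3 genes did not move together over the 19 libraries. Their 6 pairs lay between -0.52 for Coch with Cdh24 and 0.14 for Bok with Cdh24, with a median of -0.08. In single groups they lay between -0.34 and 0.24 in young, between -0.38 and 0.70 in old control and between -0.78 and 0.44 in old anti-miR-mix libraries, and 2 of the 6 exceeded 0.5 in old control libraries alone (0.70 for Bok with Coch and 0.51 for Bok with Iyd). In the other 2 groups Bok had 0.24 and -0.70 with Iyd and -0.34 and 0.02 with Coch. These values go against treating Bok, Iyd, Coch and Cdh24 as 1 measure of CA3 tissue in these libraries. Each is therefore described on its own, and their mean is used further on only as a number, to show which gene carries it. The mean of 7 other CA3 genes (Grik4, Nectin3, Cpne4, Rnf182, Homer3, Spock1 and Elavl2) had a correlation of 0.26 with Iyd, -0.14 with Cdh24, -0.22 with Bok and -0.41 with Coch. Within groups that mean spanned only 1.04-fold (young) to 1.08-fold (old anti-miR-mix). Correlations with so flat a mean say little about CA3 tissue, and pairs among the 7 genes were not computed.

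**Figure D2:**
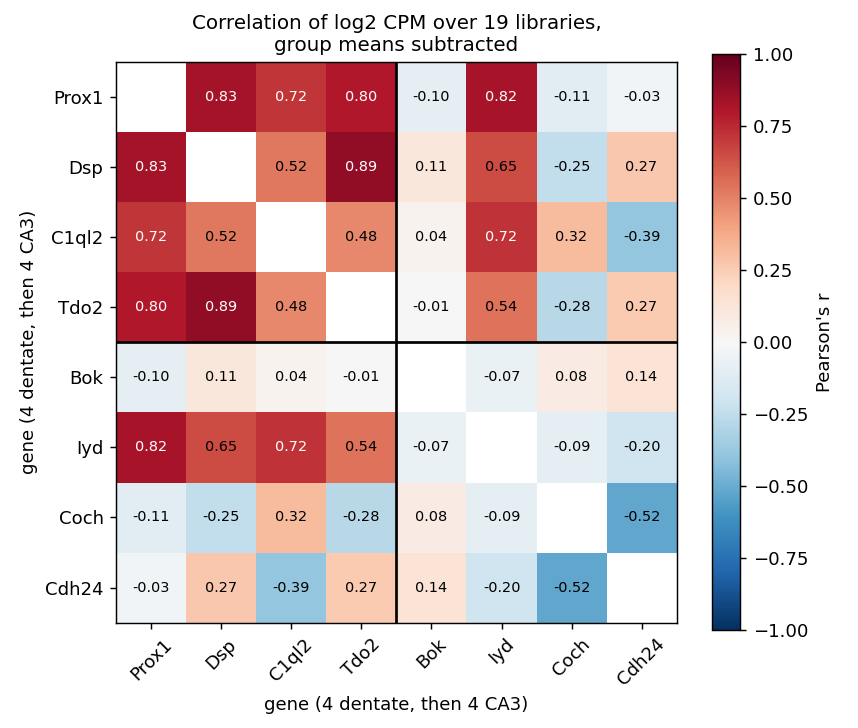
Pearson's r of log2 CPM between each pair of the 8 genes over 19 libraries after subtraction of group means, with dentate genes first and CA3 genes last on both axes (red positive, blue negative). The dentate block holds values from 0.48 to 0.89, the CA3 block values from -0.52 to 0.14, and the row of Iyd is red in the 4 dentate columns (0.54 to 0.82).

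Iyd followed the dentate genes. Of the 16 pairs of a dentate with a CA3 gene, 4 exceeded 0.5, and these were the 4 pairs with Iyd, at 0.82 with Prox1 (rho 0.80, 0.75 without 2 libraries), 0.72 with C1ql2 (rho 0.73, 0.62 without 2), 0.65 with Dsp (rho 0.72, 0.65 without 2) and 0.54 with Tdo2 (rho 0.67, 0.51 without 2). After subtraction of processing group means in place of group means, Iyd had 0.76 with Prox1, 0.57 with C1ql2, 0.46 with Dsp and 0.31 with Tdo2. In single groups the lowest of these pairs was 0.34, with Tdo2 in old control libraries. All of these values rest on 1 to 22 reads of Iyd per library. With the other CA3 genes Iyd had values of -0.07 (Bok), -0.09 (Coch) and -0.20 (Cdh24). Its correlation with the mean of 10 other dentate genes was 0.85 (rho 0.83). In the libraries with its highest values, old anti-miR-mix replicate 5 (log2 CPM -0.47) and replicate 6 (-1.09), Dsp was at 4.12 and 2.45.

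Cdh24 had r = 0.79 (rho 0.79) with the mean of the CA1 genes Wfs1, Fibcd1, Mpped1, Pou3f1 and Man1a, and 0.12 with the dentate mean. It also had negative values of nearly that size, -0.66 with the mean of interneuron genes, -0.63 with that of mossy cell genes, -0.63 with that of cortical genes and -0.58 with that of meningeal genes. Bok had r = -0.70 (rho -0.73) with the mean of 4 genes common to neurons, 0.42 (rho 0.36) with that of 3 oligodendrocyte genes, 0.39 (rho 0.46) with that of 6 CA2 genes and 0.06 with the dentate mean.

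**Figure D3:**
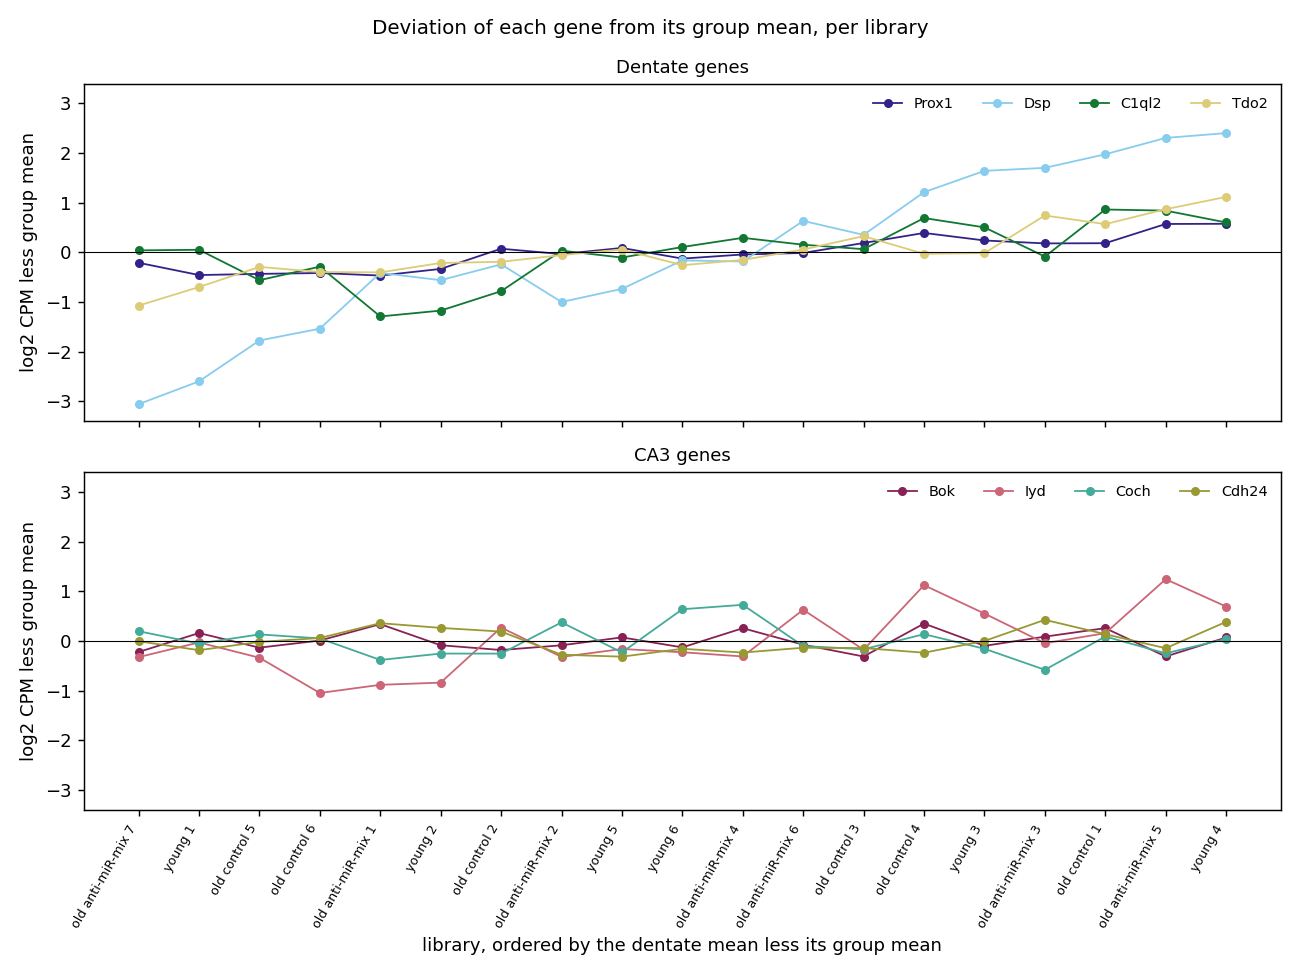
Log2 CPM less the group mean (vertical axis) of the dentate genes (upper panel) and the CA3 genes (lower panel) in each of 19 libraries, ordered along the horizontal axis by the dentate mean less its group mean. Lines of Prox1, Dsp, C1ql2 and Tdo2 rise together from left to right with Dsp steepest, Iyd rises with them, and Bok, Coch and Cdh24 show no slope.

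The mean log2 CPM of the 4 dentate genes was taken as a score of dentate RNA in a library. Over the 6 young libraries it was 2.58 ± 0.77 (SD), from 1.66 to 3.75, and over the 6 old control libraries 2.36 ± 0.68, from 1.60 to 3.26. Over the 7 old anti-miR-mix libraries it was 2.58 ± 0.75, from 1.51 to 3.73. The groups thus differed by far less than libraries within a group. The score spanned a 4.29-fold range in young, a 3.17-fold range in old control and a 4.66-fold range in old anti-miR-mix libraries. These ranges depend on how genes are combined, since Dsp (SD within groups 1.70, against 0.35 for Prox1) weighs as much as each other gene. Summed CPM of the same 4 genes spanned 2.03-fold (old control) to 2.66-fold (old anti-miR-mix). The mean of the 10 other dentate genes named below spanned 1.38-fold (old control) to 1.54-fold (young). Group accounted for 2.16% of the spread of the score.

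The score was followed by dentate genes that did not enter it, though their list too was chosen with earlier results of these data known. The mean of 10 other dentate genes (Lct, Npnt, Stxbp6, Trpc6, Plk5, Sema5b, Glis3, Dock10, Rfx3 and Fam163b) had r = 0.94 with it after subtraction of group means (rho 0.91, 0.91 without 2 libraries), and 8 of the 10 genes exceeded 0.5, with Lct (0.48) and Sema5b (-0.15) as the exceptions. No gene of the CA3 list described above or of the CA2, CA1, cortical, thalamic or mossy cell lists exceeded 0.5, while 2 of 5 microglial genes and 1 of 4 genes of immature neurons did. Among the 14099 genes outside the set with a mean of at least 50 reads, the 6 with the highest correlation were Sema5a (0.95), Smoc2 (0.92), Plk5 (0.91), Npnt (0.91), Plekha2 (0.90) and Slc29a4 (0.89). Log2 CPM of Smoc2 ranged from 0.57 to 2.84 over the libraries, of Npnt from 2.39 to 4.03 and of Sema5a from 4.71 to 5.94. Plk5 and Npnt also belong to the list of 10. In all, 17 of the 14099 genes exceeded 0.8. The score had a correlation of 0.11 with the mean of the CA1 genes.

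Of the 10 other dentate genes, Fam163b was called with age, at -0.29 on the log2 scale in old control against young libraries with an SE of 0.08 (adjusted p = 0.0395 in edgeR), and 0 of the other 9 were. Over all genes 2.67% were called in this comparison. The list had a median log2 fold change of -0.07, from -0.58 for Npnt to 0.32 for Glis3, beside 0.01 over all genes. In old anti-miR-mix against old control libraries 0 of 10 were called (0 at an unadjusted p under 0.05), with values from -0.07 for Trpc6 to 0.35 for Npnt. In old anti-miR-mix against young libraries 0 of 10 were called (2 at an unadjusted p under 0.05), with values from -0.23 for Npnt to 0.40 for Glis3. Of the 7 other CA3 genes 0 were called in any of the 3 comparisons (1, 0 and 2 at an unadjusted p under 0.05, in the same order). Their log2 fold changes with age lay between -0.18 for Nectin3 and 0.14 for Homer3, with treatment between -0.04 for Elavl2 and 0.09 for Homer3, and in old anti-miR-mix against young libraries between -0.19 for Nectin3 and 0.23 for Homer3.

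The dentate score moved with processing group and with depth. Its mean was 3.29 ± 0.49 in the 5 libraries of processing group 3 (SD) and 2.23 ± 0.71 (n = 4), 2.27 ± 0.55 (n = 5) and 2.20 ± 0.52 (n = 5) in groups 1, 2 and 4. Processing group accounted for 46.4% of the spread of the score and for 51.8% of that of log2 total reads. Dsp had a mean log2 CPM of 3.37 ± 1.03 in group 3 and of 1.27 ± 1.70, 1.02 ± 1.43 and 0.91 ± 1.20 in groups 1, 2 and 4. With log2 total reads the score had r = 0.73 (rho 0.74), 0.74 after subtraction of group means (rho 0.74, 0.69 without 2 libraries) and 0.68 after subtraction of processing group means (rho 0.56). Without the libraries of processing group 3 it was 0.57 (rho 0.46, n = 14). CPM values are scaled to the reads of each library, and the part in the score of depth, or of what the processing group number stands for, was not tested.

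Within processing groups the differences of the score between experimental groups did not keep one sign. Old control less young libraries gave 1.02 in processing group 1, 0.76 in group 2 and -0.79 in group 4. For old anti-miR-mix less old control libraries the differences were -0.73, -0.85 and 1.14 in groups 1, 2 and 4, with 1 or 2 libraries on each side. For old anti-miR-mix less young libraries they were 0.28, -0.10, -0.29 and 0.35 in groups 1 to 4.

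**Figure D4:**
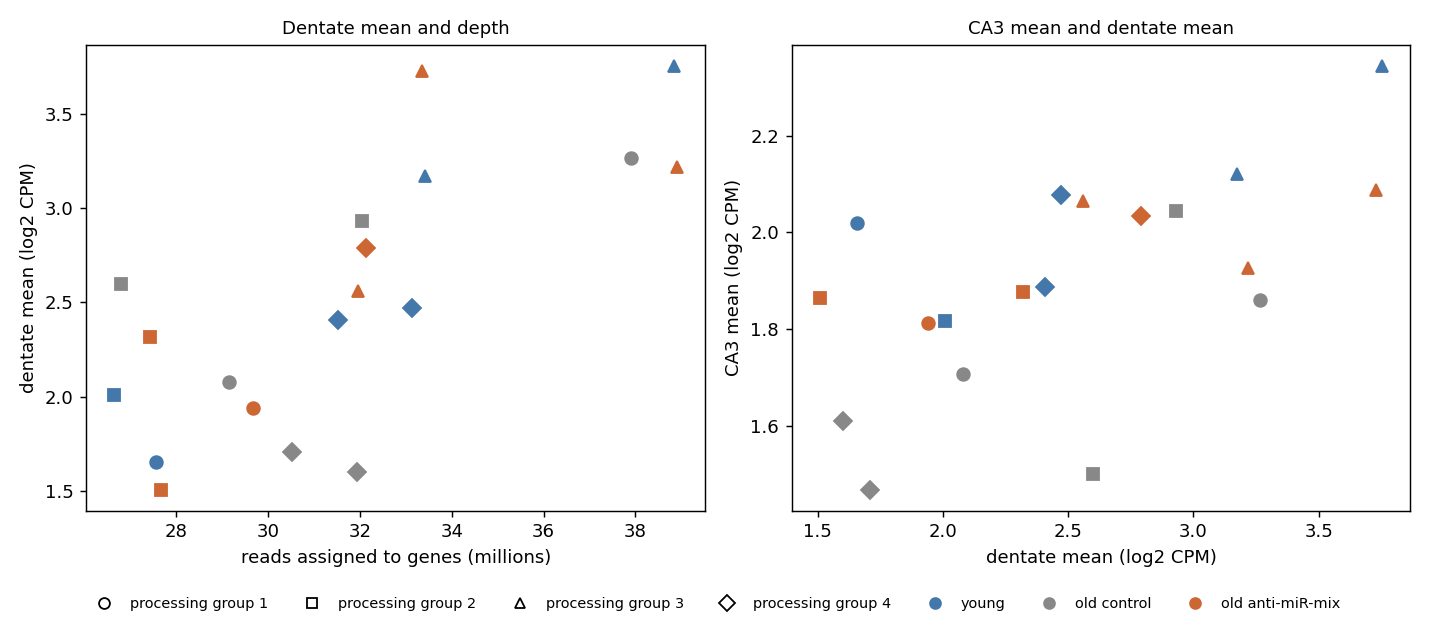
Mean log2 CPM of the 4 dentate genes against the reads assigned to genes, in units given on the axis, (left) and mean log2 CPM of the 4 CA3 genes against the dentate mean (right), 1 point per library, coloured by group and shaped by processing group. Libraries of processing group 3 (triangles) lie in the upper part of the left panel, between 2.56 and 3.75, and the 4 lowest points of the right panel are old control libraries.

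The mean of the CA3 genes was 2.04 ± 0.19 log2 CPM (SD) over the 6 young, 1.70 ± 0.22 over the 6 old control and 1.95 ± 0.11 over the 7 old anti-miR-mix libraries, and group accounted for 44.1% of its spread. Processing group accounted for 33.6%, with a mean of 2.11 ± 0.15 (n = 5) in processing group 3, which held no old control library, and of 1.85 ± 0.13 (n = 4), 1.82 ± 0.20 (n = 5) and 1.82 ± 0.27 (n = 5) in groups 1, 2 and 4. Old control less young libraries gave -0.24, -0.04 and -0.44 within processing groups 1, 2 and 4, and old anti-miR-mix less old control libraries 0.03, 0.10 and 0.49. For old anti-miR-mix less young libraries the differences were -0.21, 0.05, -0.21 and 0.05 in groups 1 to 4. The mean of the CA3 genes had a correlation of 0.70 with the dentate mean after subtraction of group means (rho 0.66, 0.61 without 2 libraries). Without Iyd in the mean this was -0.02 (rho 0.01), while without Bok, Coch or Cdh24 it was 0.72, 0.77 and 0.61. Without Coch in the mean, group accounted for 17.0% of the spread, against 40.5%, 56.3% and 41.1% without Bok, Iyd or Cdh24. The correlation of this mean with the dentate mean was thus carried by Iyd, and much of its difference between groups by Coch. The mean of the 4 CA3 genes had a correlation of -0.07 with the mean of the 7 other CA3 genes, which hardly varied within groups (1.04-fold to 1.08-fold). The 6 genes outside the set nearest to the mean of the 4 CA3 genes were Sema5a (0.79), Ahcyl2 (0.78), Pde7b (0.77), Pdyn (0.76), Rerg (0.76) and Plk5 (0.75). Of these, Sema5a and Plk5 were also among the 6 nearest to the dentate mean.

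To see how the comparisons across all genes depend on the levels of the 8 genes, the number of genes called was recomputed with the mean levels as terms in the fit, over the 19278 genes outside the set. With no term, 513 genes were called in old control against young, 129 in old anti-miR-mix against old control and 1196 in old anti-miR-mix against young libraries. With the dentate mean as a term the counts were 438, 90 and 1202, of which 406, 89 and 1149 were among the genes called without it. With both means they were 32, 39 and 931, of which 29, 38 and 875 were shared. With the CA3 mean alone they were 38, 0 and 1050 in edgeR, the 0 beside 1044 genes at an unadjusted p under 0.05.

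The counts with both means depended on which genes the CA3 mean held, and with age most on Coch. When the CA3 mean was computed without Coch, 242, 143 and 1171 genes were called, of which 233, 107 and 1063 were shared with the fit without terms. Without Bok the counts were 17, 39 and 877, without Iyd 32, 37 and 830 and without Cdh24 57, 10 and 1171. With old control replicates 5 and 6 as 1 library, 312, 33 and 1102 genes were called with no term and 18, 18 and 867 with both means. A term that itself differs between groups, as the CA3 mean did, takes up part of any group difference. The level of this mean, with age mainly that of Coch, therefore cannot be told apart from group in these counts. The counts give no measure of CA3 tissue.

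**Figure D5:**
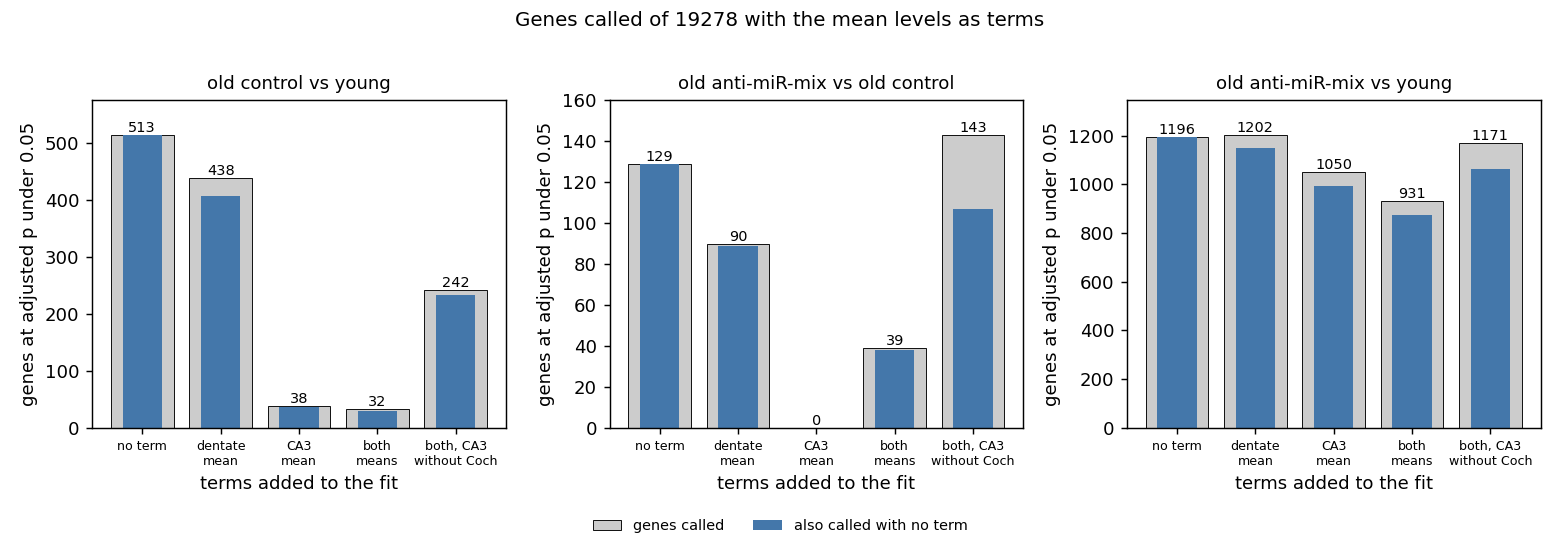
Number of genes called of 19278 (vertical axis, a separate scale in each panel) in the 3 comparisons, by the terms added to the fit (horizontal axis), with grey bars for all genes called and blue bars for those also called with no term. In old control against young libraries the count is 513 with no term, 438 with the dentate mean, 32 with both means and 242 with both when the CA3 mean lacks Coch.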

How the data were processed

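Libraries were made by the authors with the TruSeq kit from polyadenylated RNA, with single-end reads of 50 bases. Per the submitters' processing notes and the study's methods, quality was checked with FastQC 0.11.5, reads were aligned to mm10 (GRCm38) with STAR 2.5.2b and counted per gene with featureCounts of Subread 1.5.1. Strand and multi-mapping options are not given in the sources used here. The deposited files held raw read counts per gene for each library, and log2 values of 18761 genes in 1 table. The deposited log2 values equalled log2(CPM + 1) less the product of a slope of the gene and a library's number, 1 to 4 (largest residual 3.4e-08). That number served as processing group, and the deposited log2 values served otherwise only as an alternative.

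Genes that reached 5 reads in 50% or more of the libraries entered the test, were scaled by TMM and tested with edgeR 4.0.16 (quasi-likelihood, R 4.3.3), with 3 groups in one fit and a Benjamini-Hochberg threshold of 0.05. The study used DESeq2, and here DESeq2 1.42.0 and limma 3.58.1 were alternatives, beside other scalings, filters and sets of libraries. A gene counted as without overlap when all log2 CPM values of one group lay above those of the other. GENCODE M21 gave symbols and coordinates, and RefSeq gave upstream sequences. The scripts were tested on simulated data.

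The 8 genes and the marker lists were chosen with earlier results of these data known. Some marker genes are not reported here and entered no list count or list mean. Named genes were the 8 genes, the 6 genes nearest to each mean, the highest and lowest gene of a list and called genes of the other dentate and CA3 lists. Correlations are descriptions and carry no p, and counting precision is limited by the reads given for each gene.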

Additional observations from a re-analysis of the deposited data

Results flagged for a closer look

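Young replicate 6 stood apart in Coch, with a log2 CPM of 3.53, where the next highest young library had 2.93. Its gap to that library was 0.67 of the range of the 6 young libraries, above Dixon's critical value. It was the 1 case in 30 groups examined (8 genes and both means in 3 groups), and chance flags about 1 in 20. The same library had the highest mean of the 6 meningeal genes (3.88 log2 CPM). Without it Coch was lower in old control than in young libraries by a log2 fold change of -0.78 (adjusted p = 0.0247 in edgeR).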

How the results depend on the processing

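The call of Coch with age was kept under all 12 alternatives and without each of the 19 libraries in turn, with log2 fold changes from -0.99 to -0.74 (adjusted p from 0.000144 to 0.0305). Members called in old anti-miR-mix against young libraries went from 0 to 1, Coch, in DESeq2 and in limma-voom, and were 0 to 1 when single libraries were left out. Over 282 values of single genes under alternatives, 263 kept their direction and side of the threshold and 17 changed sign, and over 456 values with 1 library left out 33 changed sign. None of the genes that changed sign was called, and the cause was not tested.

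In old control against young libraries, processing group as a factor gave 0.12 for Prox1, 0.65 for Dsp, 0.31 for Tdo2, 0.032 for Iyd and 0.013 for Cdh24. Old control replicates 5 and 6 as 1 library gave 0.0046 for Prox1, and limma on the deposited log2 values 0.0029 for Tdo2. In old anti-miR-mix against old control libraries, processing group as a factor gave -0.053 for Prox1, -0.71 for Dsp, -0.22 for C1ql2 and -0.28 for Tdo2. In old anti-miR-mix against young libraries Bok was at 0.0073 by library size only, 0.0035 with at least 20 reads and 0.026 with the replicate block, and Dsp at 0.018 in limma-voom, 0.42 with the replicate block and 0.067 in limma on the deposited values.

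With single libraries left out, values with age ranged from -0.15 to 0.078 for Prox1, -1.27 to 0.064 for Dsp, -0.25 to 0.27 for Tdo2 and -0.079 to 0.076 for Cdh24. With treatment they ranged from -0.068 to 0.32 for C1ql2 and -0.13 to 0.00049 for Cdh24. In old anti-miR-mix against young libraries they ranged from -0.57 to 0.70 for Dsp, -0.062 to 0.48 for Tdo2, -0.058 to 0.053 for Bok and -0.14 to 0.031 for Cdh24. Old anti-miR-mix replicate 5 and young replicate 4, with the highest dentate values, gave most of these extremes.

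Deviations of same-numbered libraries from their group means had r from -0.17 to 0.21 (18 pairs, 6 over 0.1). Pairs of unlike number were not computed, so these values do not settle whether replicate numbers pair libraries. Replicate 1 was in processing group 1, and replicate 6 in processing group 4, in all 3 groups. With the replicate block, Coch had -0.92 with age (adjusted p = 0.0122 in edgeR), members called were 1, 0 and 0, and all genes called were 651, 249 and 1192 against 514, 129 and 1196. Genes called with age were 897 in DESeq2, 323 with no filter, 313 with replicates 5 and 6 as 1 and 212 to 691 with 1 library left out. Genes called with treatment were 264 in DESeq2, 48 with only the 2 groups, 9 with processing group as a factor, 33 with replicates 5 and 6 as 1 and 23 to 247 with 1 library left out.

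With both means as terms the counts of 32, 39 and 931 became 438, 90 and 1202 with the dentate mean alone, 38, 0 and 1050 with the CA3 mean alone, and 18, 18 and 867 with replicates 5 and 6 as 1. Alternatives chosen after the data were seen left 1 gene out of the CA3 mean, and gave 17, 39 and 877 without Bok, 242, 143 and 1171 without Coch and 57, 10 and 1171 without Cdh24. The group differences of both means kept their sign and moved by less than the pooled SD within groups with another prior count, with summed CPM and relative to CA1 genes, but by over 1.5 times in places. Relative to CA1 genes, that of the dentate mean went from -0.21 to -0.38 with age and from 0.22 to 0.38 with treatment, and that of the CA3 mean with treatment went from 0.25 to 0.42, and to 0.12 with summed CPM. In old anti-miR-mix against young libraries the dentate mean, at 0.0025, gave 0.057 with summed CPM and 0.00071 relative to CA1 genes. Depth limits Iyd most, with 1 to 22 reads.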

Other observations

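Other cell type lists were measured in the same libraries. Over all genes, 2.67% were called with age and 0.669% with treatment in edgeR. Calls of single list genes were not followed under the alternatives. There, all genes called ranged from 313 to 897 with age and from 9 to 264 with treatment. With age, 2 of 3 oligodendrocyte genes were lower in edgeR (Mog -0.55 and Mag -0.43 in log2 fold change, adjusted p = 0.00398 and 0.0484), and their correlation with the dentate mean over the 19 libraries, after subtraction of group means, lay between 0.06 and 0.20. With treatment, 2 of 5 microglial genes were higher in old anti-miR-mix than in old control libraries in edgeR (Csf1r 0.32 and C1qa 0.63, adjusted p = 0.0276 and 0.0259). The microglial genes had correlations of 0.08 to 0.58 with the dentate mean after subtraction of group means, with a median of 0.36. Of the 5 CA1 genes, 4 were higher with age (median log2 fold change 0.16, 0 called) and 5 were lower with treatment (median -0.13, 0 called). In old anti-miR-mix against young libraries 3 were higher and 2 lower, and Wfs1 was called lower (-0.36, adjusted p = 0.0366 in edgeR), where 6.2% of all genes were called.

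Of the 4 choroid plexus genes tested, 0 were called in old control against young libraries in edgeR (3 at an unadjusted p under 0.05). Their log2 fold changes were 2.08 for Ttr, 1.05 for Clic6, 0.38 for Kl and -1.60 for Kcnj13, with a median of 0.71. Mean log2 CPM of Ttr was 2.61 ± 2.82 (SD) in old control and 2.27 ± 0.49 in young libraries, so that its fitted value rests on few libraries. Kcnj13 had a mean of 9.1 reads and a lowest count of 0. The mean of the 4 genes ranged from 0.45 to 1.66 log2 CPM in young, from 0.09 to 2.57 in old control and from 0.04 to 2.76 in old anti-miR-mix libraries. The highest old control values were those of the nearly alike replicates 5 (2.54) and 6 (2.57). The choroid plexus genes had correlations of -0.48 to 0.08 with the dentate mean.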
